A study of Mus musculus with 16 samples.

Results

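Transcripts of the matrix metalloproteinases (MMPs), the ADAM and ADAMTS proteases, the ADAMTS-like proteins and the tissue inhibitors of metalloproteinases (TIMPs) were examined in mouse primary neuronal cultures (PNCs) after oxygen-glucose deprivation (OGD), a cell culture model of ischemic stroke. Members were chosen by gene symbol: Mmp, Timp, Adam, Adamts or Adamtsl followed by a number, with or without a final letter. The rule gave 84 of 53679 symbols, with 359 of 135202 isoforms. They comprise 23 *Mmp*, 4 *Timp*, 33 *Adam*, 19 *Adamts* and 5 *Adamtsl* genes. Levels are FPKM (fragments per kilobase of transcript, scaled to library size), summed over the isoforms of each gene, so levels of different genes are compared per length.

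RNA-seq had been performed on 16 PNCs, 4 in each of 4 groups, from the cortex of wild-type mouse embryos at embryonic day 15. CONTROL-VEH cultures received vehicle (DMSO, which the labels call untreated) and CONTROL-TIA cultures 10 µM of the antidepressant tianeptine (TIA) at day in vitro 8, with a sham procedure 24 h later. OGD-VEH and OGD-TIA cultures received the same pretreatments and then 3 h of OGD at day in vitro 9. RNA of all 16 cultures was taken 6 h after OGD or sham, and the study compared OGD with CONTROL in the absence and presence of TIA. The mouse strain and sex were not given in the sources used here.

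MMPs, ADAMs and ADAMTSs are zinc-dependent proteases that act outside the cell or at its surface. MMPs are made as inactive proenzymes and cut collagens, laminins and other matrix proteins. ADAMs are membrane proteins, many of which release the ectodomains of receptors, growth factors and adhesion molecules. ADAMTSs are secreted, bind the matrix through thrombospondin motifs and cut proteoglycans and procollagens. TIMPs bind the active sites of these proteases. In the ischemic brain the system is best known for the breakdown of the basal lamina around blood vessels.

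Defining markers in the cultures were those of neurons, with astrocyte and oligodendrocyte precursor transcripts beside them. The summed FPKM of 7 neuron markers averaged 2233 in CONTROL-VEH, 2109 in CONTROL-TIA, 1395 in OGD-VEH and 1823 in OGD-TIA. The sum of 8 astrocyte markers averaged 613, 487, 1027 and 737, and that of 8 oligodendrocyte lineage markers 192, 178, 501 and 294 in the same order. *Slc1a3* and *Aldh1l1* gave most of the astrocyte sum, 545 and 270 FPKM in OGD-VEH. Not every marker followed its sum. The astrocyte marker *Slc1a2* averaged 51.8, 46.9, 38.3 and 32.5 FPKM, and the oligodendrocyte marker *Mbp* 7.18, 6.995, 3.81 and 4.76 FPKM. Of 8 microglia markers 1 (*Aif1*) reached a mean of 0.5 FPKM, and of 7 endothelial markers 0 did. The microglia marker *Cx3cr1* and the endothelial marker *Cdh5* were at or near 0 in every culture. Of 5 mural cell markers 2 reached it, with sums between 3.59 and 13.3 FPKM in every culture. The fibroblast sum averaged 54.5, 47.1, 139.8 and 79.3 FPKM in the same order, of which *Pdgfra*, also an oligodendrocyte precursor gene, gave 41.5, 34.4, 133.6 and 71.1. *Col1a1*, the defining collagen gene of fibroblasts, lay between 0.115 and 1.40 FPKM. *Dcn*, the other fibroblast marker at 0.5 FPKM, averaged 11.8, 11.8, 5.56 and 7.68 FPKM, lower in the OGD groups where the sum was higher. In such mixed RNA, fewer cells of a type and less RNA per cell cannot be told apart.

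At a mean of 0.5 FPKM over the 16 cultures, 40 of the 84 members were measurable, as were 16313 of the 53679 symbols. All 4 *Timp* genes were measurable, as were 16 of 19 *Adamts*, 11 of 33 *Adam*, 7 of 23 *Mmp* and 2 of 5 *Adamtsl* genes. Of the other 44 members, 15 averaged at least 0.1 FPKM and 23 lay between 0 and 0.1 FPKM. The remaining 6 (*Adam24*, *Adam26a*, *Adam34*, *Mmp1a*, *Mmp7* and *Mmp27*) were listed at 0 in all 16 cultures. The effective depth behind the scaled values was estimated at 19.7 to 26.0 M reads per culture (median 23.0 M). By this estimate 1 read on a transcript of 1 kb was worth 0.0385 to 0.0508 FPKM. The highest estimates lie above the range of aligned reads that the study states, so they are not counts of sequenced reads. Every measurable member other than *Timp1* rested on an estimated 24.9 or more reads in every culture.

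**Figure D1:**
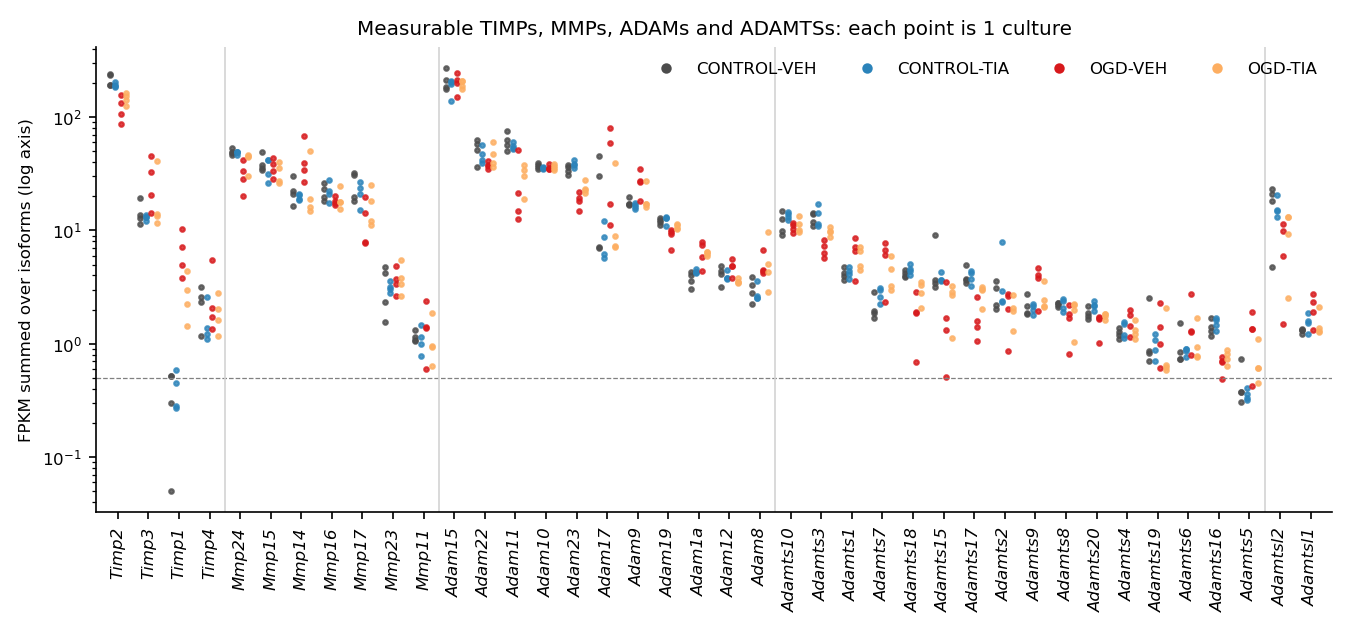
FPKM summed over isoforms (y axis, log scale) of the 40 measurable members (x axis, by family), with 1 point per culture coloured by group; the dashed line marks 0.5 FPKM and the *Timp1* value of CONTROL-VEH 4, listed at 0, is drawn at 0.05. *Timp2* and *Adam15* lie highest, the *Adam10* points coincide, and the *Timp1* points of the 8 OGD cultures all lie above those of the 8 CONTROL cultures.

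The members below the 0.5 FPKM limit included *Mmp13*, a secreted collagenase, and *Mmp3* and *Mmp10*, secreted stromelysins. A run of 10 *Mmp* genes on chromosome 9 (GRCm38, positions 7272514 to 7699585) held no measurable member. *Mmp13* had the highest mean of the run, 0.0664 FPKM, or an estimated 64.1 reads over all 16 cultures together. *Mmp3* was listed at 0 in all 8 CONTROL cultures. It was listed at 0.028, 0, 0.126 and 0.126 FPKM in OGD-VEH 9 to 12 and at 0.112, 0.021, 0 and 0.093 FPKM in OGD-TIA 13 to 16. The highest of these values corresponds to an estimated 5.09 reads, and no fold is given against a group listed at 0. By qRT-PCR the study found no significant effect of OGD or TIA on *Mmp3* mRNA.

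The promoters of the chromosome 9 genes are shown because many share the AP-1 element, the site through which stromelysins and collagenases are known to be induced. The letters TGAGTCA, or TGACTCA on the other strand, were searched on both strands from 250 bases before to 50 bases after each start in RefSeq (GRCm38.p6), with no other motif searched. Of 53 members with a RefSeq promoter, 10 (18.9%) held the element, beside 5.95% of the 27025 genes with a promoter. These were 7 of the 18 *Mmp* genes with a promoter, all 7 on chromosome 9, and 3 *Adam* genes. Of the 25 measurable members with a promoter only *Adam19* held it. Windows of 30 bases, each 5′ to 3′ on the strand of the gene and with the element in capitals, read as follows.
Mmp13, chr9:7272468-7272497 (+): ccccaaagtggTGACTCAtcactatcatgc
Mmp12, chr9:7347319-7347348 (+): gacatcaacagTGAGTCAgatagaggattt
Mmp1b, chr9:7388101-7388130 (-): gttacaaagccTGAGTCAtatagcctctgg
Mmp3, chr9:7445765-7445794 (+): ggaagcaattaTGAGTCAgttttcgggtga
Mmp1a, chr9:7464057-7464086 (+): gttgtcaaccaTGAGTCAcatagcctctgg
Mmp10, chr9:7502268-7502297 (+): tagcacccatgTGAGTCAtgcttagtgacc
Mmp7, chr9:7692016-7692045 (+): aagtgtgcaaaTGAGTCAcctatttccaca
Adam19, chr11:46055842-46055871 (+): tgtccttcaccTGAGTCAgcgatgctcccg
The element began between 35 (*Mmp13*) and 93 (*Mmp1b*) bases before the start in the *Mmp* genes and 131 bases before it in *Adam19*. A match is a description of the letters and no measure of binding.

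OGD was first compared with CONTROL in the absence of TIA. DEGs, by the study's definition, had to pass both an adjusted p and a fold limit. With padj ≤ 0.05 and at least 1 unit of change on the log2 scale, 1 member was an upregulated DEG (*Timp1*) and 1 a downregulated DEG (*Adamts17*). Of all 16346 genes tested, 2.4% were upregulated and 1.68% downregulated DEGs, 4.09% in all. The study's DESeq2 test reported more DEGs for this comparison. At padj ≤ 0.05 without the fold limit, *Timp1* rose and *Adam23*, *Timp2*, *Adamts3*, *Adamts16* and *Adamts17* fell. These are 1 and 5 of the 41 members tested, beside 4.99% and 3.45% of all genes (816 and 564 genes; 636 and 660 after median-ratio scaling), or 8.44% in either direction. At an unadjusted p under 0.05, 10 members were higher and 12 lower, beside 20.2% and 14.9% of all genes. The median log2 fold change was -0.04 over the members tested and 0.10 over all genes tested. All 4 OGD-VEH cultures lay above all 4 CONTROL-VEH cultures for 3 members and below them for 8, beside 12.7% and 9.95% of all genes. *Timp1*, *Adamts5* and *Adamts12* entered this comparison through their OGD-VEH levels alone, and *Timp1* and *Adamts5* entered the fits with TIA and over both arms through their OGD levels alone. Each test used limma on log2(FPKM + 0.1) with p adjusted over all genes tested, so that a fold change understates that of a low gene.

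Leaving out single cultures changed the number of calls more than the size of the changes. Leaving out CONTROL-VEH 1, 2 or 3 or OGD-VEH 10, 11 or 12 left 0 members at padj ≤ 0.05 by limma, with 5 to 7 members higher and 9 to 12 lower at an unadjusted p under 0.05. In the same 6 fits 1 to 55 of all genes were called as higher and 0 to 51 as lower, so the calls were lost over the whole table. With any 1 culture left out the log2 fold change stayed between 3.53 and 4.41 for *Timp1*, -0.99 and -0.80 for *Adam23*, and -0.97 and -0.80 for *Adamts3*. Without CONTROL-VEH 4 only *Timp1* was called, and without OGD-VEH 9 the count was 20. The share of all genes at padj ≤ 0.05 is not given for those fits. With 1 culture left out, 1 to 2186 of all genes were DEGs, so no excess of members can be read from the counts. *Adam11* (padj = 0.0518), *Adamts7* (padj = 0.0571) and *Adamts18* (padj = 0.0575) lay just outside the threshold and *Adamts16* (padj = 0.0479) just inside it.

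Over both arms, with all 16 cultures and TIA as a term, 8 members rose and 11 fell at padj ≤ 0.05 of 40 tested. The same test called 18.7% of the 16313 genes as higher and 13.4% as lower. At an unadjusted p under 0.05, 9 members were higher and 14 lower, beside 26.1% and 18.1%. Members that rose were *Timp1*, *Adam1a*, *Adam8*, *Adam9*, *Adamts1*, *Adamts5*, *Adamts7* and *Adamts9*. Members that fell were *Timp2*, *Mmp17*, *Mmp24*, *Adam11*, *Adam19*, *Adam23*, *Adamts3*, *Adamts15*, *Adamts16*, *Adamts17* and *Adamts18*. The median log2 fold change was -0.01 over the members and 0.08 over all genes. *Timp1* again passed the fold limit as upregulated, beside 2.8% of all genes, as did *Adam11* and *Adamts15* as downregulated, beside 1.99%. Between 15 and 21 members were called with any 1 culture left out, fits for which the share of all genes is not given. In the same fits 526 to 1058 of all genes were DEGs. The count of members was 15 without CONTROL-VEH 2, without OGD-VEH 10 or without OGD-TIA 16, and 21 without OGD-VEH 9. The calls of *Adam9*, *Adamts1*, *Adamts9* and *Mmp17* were each lost in several of these fits, and the other 15 were kept in every one. The fit shares its cultures with the comparison without TIA and is not a separate experiment.

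**Figure D2:**
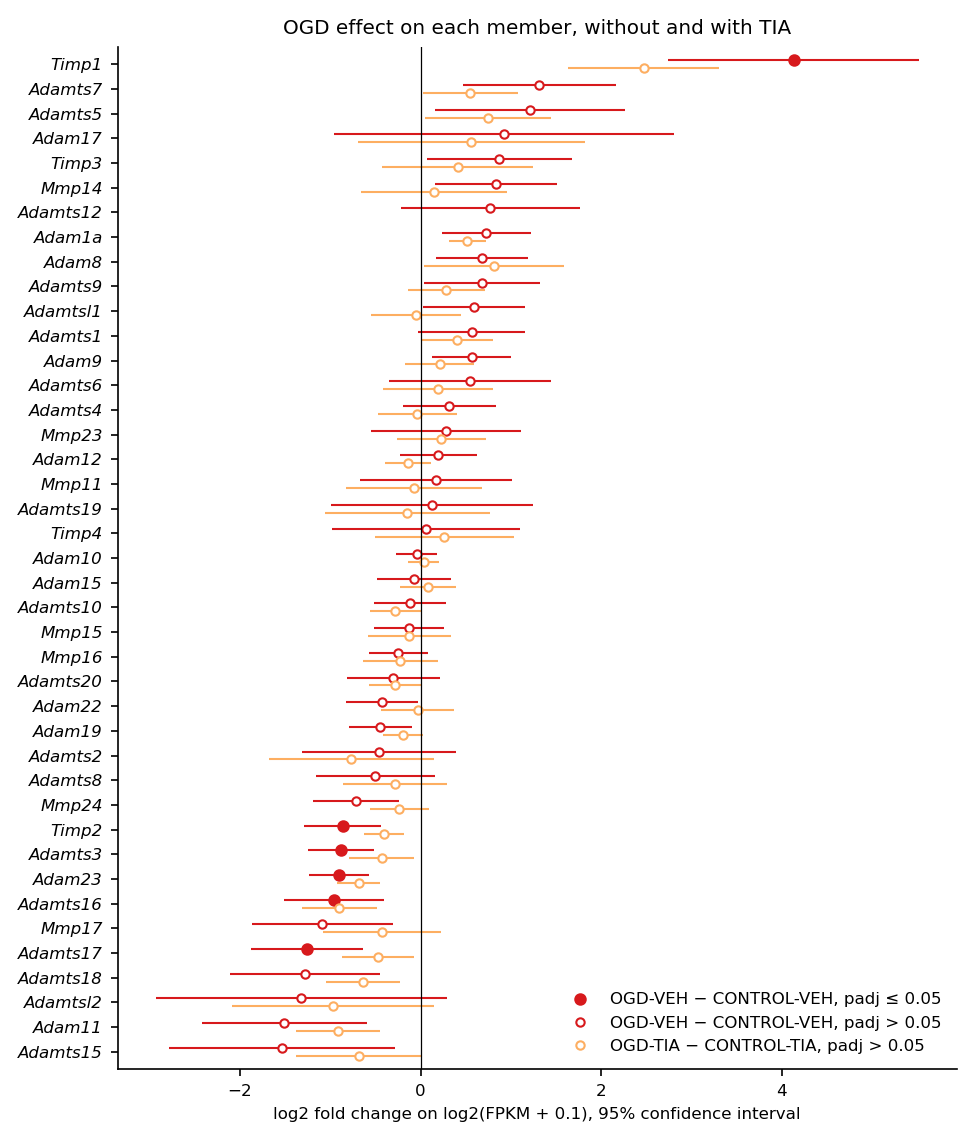
Log2 fold change of OGD against CONTROL on the log2(FPKM + 0.1) scale (x axis) for the 41 members tested (y axis), without TIA (red) and with TIA (orange); bars are 95% confidence intervals from limma with 4 cultures per group, and filled points have padj ≤ 0.05. *Timp1* stands farthest to the right in both arms, the 6 filled points are all from the arm without TIA, and *Adamts12* was tested without TIA only.

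Among the TIMPs, the inducible inhibitor *Timp1* and the abundant inhibitor *Timp2* changed in opposite directions. *Timp1* (chrX:20870166-20874735, plus strand) was listed at 0.522, 0.299, 0.525 and 0 FPKM in CONTROL-VEH and at 3.78, 7.18, 4.93 and 10.2 FPKM in OGD-VEH. With TIA it was at 0.585, 0.272, 0.283 and 0.454 FPKM in CONTROL-TIA and at 3.01, 2.26, 1.44 and 4.42 FPKM in OGD-TIA. Every OGD culture therefore lay above every CONTROL culture, and OGD-VEH 12 and OGD-TIA 16 were the highest of their groups. The log2 fold change was 4.13 (SE 0.61, padj = 0.0281, limma) without TIA and 2.47 (SE 0.37, padj = 0.0741) with TIA, and over both arms it was 3.30 (SE 0.42, padj = 0.000685). Because the CONTROL values are low, the log2 fold change without TIA was 2.44 with a pseudocount of 1 and 5.14 with a pseudocount of 0.01. The call without TIA held with both pseudocounts. It was lost without the filter on low values, which *Timp1* passed through its OGD levels alone. It was also lost when CONTROL-VEH 1, 2 or 3 or OGD-VEH 10, 11 or 12 was left out.

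The 120 bases before the start of *Timp1* (chrX:20870046-20870165, plus strand, RefSeq, GRCm38.p6) are shown because it was the most strongly upregulated member.
Timp1: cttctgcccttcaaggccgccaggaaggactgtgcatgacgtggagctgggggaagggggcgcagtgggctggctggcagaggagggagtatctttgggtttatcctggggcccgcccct
They do not hold TGAGTCA or TGACTCA. Sites that differ from these letters were not searched, so no absence of AP-1 control can be read from this. *Timp1* lies within an intron of *Syn1*, which is read from the opposite strand and encodes the synaptic vesicle protein synapsin I, and no exon of *Syn1* overlaps it. *Syn1* moved the other way, from 126 ± 7.41 FPKM in CONTROL-VEH to 82.0 ± 31.8 FPKM in OGD-VEH (mean ± SD, n = 4), with 108 ± 27.7 FPKM in OGD-TIA. *Timp3* lies likewise within *Syn3*, with 1 overlapping *Syn3* exon, and *Timp4* within *Syn2*, with 6 overlapping exons, each on the opposite strand. The library kit marks strand, but whether the estimation used it was not given in the sources used here, so reads of *Timp3* and *Timp4* that fall on those exons may not be told apart from those of their hosts.

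*Timp2* (chr11:118301069-118355740), which also takes part in the activation of pro-MMP2, was by far the most abundant TIMP. It was at 191, 193, 233 and 240 FPKM in CONTROL-VEH and at 155, 134, 106 and 86.0 FPKM in OGD-VEH. CONTROL-TIA cultures had 183, 192, 188 and 202 FPKM and OGD-TIA cultures 153, 164, 140 and 124 FPKM. All OGD cultures lay below all CONTROL cultures. The log2 fold change was -0.86 (SE 0.19, padj = 0.04) without TIA, -0.40 (SE 0.10, padj = 0.121) with TIA and -0.63 (SE 0.12, padj = 0.00296) over both arms. The *Timp2* locus overlaps the protein-coding gene *Cep295nl* on the same strand, so some of its reads may not be told apart.

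*Timp3*, a matrix-bound inhibitor that also acts on ADAM17 and ADAMTSs, was at 12.8, 11.3, 13.7 and 19.4 FPKM in CONTROL-VEH and at 14.2, 45.6, 20.4 and 32.9 FPKM in OGD-VEH. It ranged from 12.1 to 13.6 FPKM in CONTROL-TIA and was at 13.5, 13.8, 11.7 and 41.2 FPKM in OGD-TIA. OGD-VEH 10 and 12 and OGD-TIA 16 were high, OGD-VEH 11 lay just above the highest CONTROL culture, and the other 4 OGD cultures lay within the CONTROL range. *Timp3* missed the threshold without TIA (log2 fold change 0.87, SE 0.35, padj = 0.118) and over both arms (0.64, SE 0.27, padj = 0.0768). Without OGD-VEH 9 it passed in both fits (padj = 0.0248 and 0.0368), and without OGD-TIA 15 it passed over both arms (padj = 0.0441). *Timp4* was low throughout, between 1.11 and 5.51 FPKM, with OGD-VEH 12 the highest culture. Its log2 fold change without TIA was 0.06 (95% confidence interval -0.99 to 1.10, padj = 0.936).

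Within the TIMPs the composition of the transcript pool differed. The 4 genes summed to 231 FPKM in CONTROL-VEH, 206 in CONTROL-TIA, 158 in OGD-VEH and 170 in OGD-TIA. *Timp1* made up 0.152%, 0.194%, 4.31% and 1.63% of the TIMP transcripts (means of the shares in the 4 cultures), with 2.17% to 7.58% in the OGD-VEH cultures and 0.925% to 2.58% in the OGD-TIA cultures. *Timp2* made up 92.7%, 92.7%, 75.8% and 85.5%. OGD-VEH 10 and 12 and OGD-TIA 16 had the lowest *Timp2* shares of all cultures, 71.1%, 63.9% and 72.4%.

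**Figure D3:**
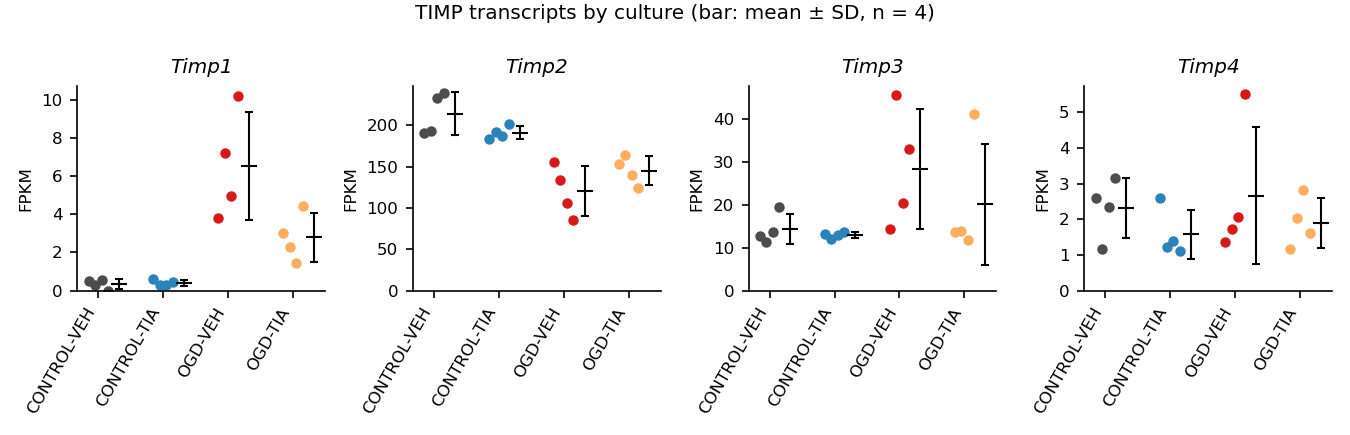
FPKM (y axis, linear, from 0) of *Timp1*, *Timp2*, *Timp3* and *Timp4* in each culture, by group; horizontal marks and bars are the mean ± SD of 4 cultures. *Timp1* rises from below 0.6 to between 1.44 and 10.2 FPKM with OGD, *Timp2* falls, and *Timp3* has 3 OGD cultures above 30 FPKM.

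Among the ADAMs, the 3 members that bind LGI proteins at neuronal contacts and lack protease activity (*Adam11*, *Adam22* and *Adam23*) were all lower on average in OGD-VEH. *Adam23* (chr1:63445891-63596276) was at 36.5, 33.2, 37.9 and 30.5 FPKM in CONTROL-VEH and at 22.0, 18.0, 14.9 and 19.4 FPKM in OGD-VEH. It was at 35.6, 41.4, 37.6 and 38.7 FPKM in CONTROL-TIA and at 23.3, 27.8, 21.4 and 22.9 FPKM in OGD-TIA. No OGD culture reached a CONTROL culture in either arm. The log2 fold change was -0.90 (SE 0.15, padj = 0.0335) without TIA and -0.69 (SE 0.10, padj = 0.0741) with TIA, and it was -0.79 (SE 0.09, padj = 0.000349) over both arms, where no member had a smaller p.

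*Adam11* (chr11:102761439-102780262) was at 62.4, 75.9, 50.5 and 56.7 FPKM in CONTROL-VEH and at 51.4, 21.5, 14.8 and 12.5 FPKM in OGD-VEH. OGD-TIA cultures had 30.4, 33.8, 37.9 and 18.8 FPKM against 52.4 to 59.97 FPKM in CONTROL-TIA. OGD-VEH 9 alone fell within the CONTROL range. The log2 fold change was -1.51 (SE 0.40, padj = 0.0518) without TIA and -1.21 (SE 0.25, padj = 0.00378) over both arms. Protein-coding isoforms gave 26.2% of the *Adam11* FPKM, and with these alone the fold changes were -0.68 (padj = 0.0448) and -0.52 (padj = 0.00452).

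*Adam22*, the postsynaptic LGI1 receptor, was at 35.9, 57.8, 62.0 and 51.4 FPKM in CONTROL-VEH and at 34.9, 37.1, 40.9 and 38.04 FPKM in OGD-VEH. It was at 39.7, 41.5, 47.4 and 56.6 FPKM in CONTROL-TIA and at 59.7, 39.3, 47.1 and 36.5 FPKM in OGD-TIA. The groups overlapped and it did not pass (log2 fold change without TIA -0.43, 95% confidence interval -0.83 to -0.03, padj = 0.12). A short coding isoform of 417 bases carried 44.2% of its FPKM. The secreted ligand *Lgi1* also fell, from 16.3 to 7.47 FPKM in OGD-VEH (log2 fold change -1.13, SE 0.23, padj = 0.0357).

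*Adam10*, singled out after its values were seen, encodes the sheddase of Notch receptors and of the amyloid precursor protein and was the steadiest member. It lay between 34.3 and 39.0 FPKM in all 16 cultures, with a coefficient of variation of 4.48%. Its log2 fold change was -0.04 (95% confidence interval -0.27 to 0.18, padj = 0.784) without TIA and -0.00 (-0.11 to 0.10, padj = 0.959) over both arms. *Adam15* had the second highest level in CONTROL-VEH with 213, 186, 178 and 269 FPKM. It was at 242, 149, 200 and 212 FPKM in OGD-VEH, and the groups overlapped (log2 fold change -0.08, 95% confidence interval -0.49 to 0.34, padj = 0.788). A 418-base processed transcript, which is not protein-coding, gave 68.7% of its FPKM, and with protein-coding isoforms alone *Adam15* had rank 5 in CONTROL-VEH with 23.9 ± 2.67 FPKM.

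*Adam17*, which encodes the TNF-alpha converting enzyme, was also singled out after its values were seen. It was at 7.10, 6.97, 30.02 and 45.5 FPKM in CONTROL-VEH and at 16.9, 59.0, 11.1 and 80.5 FPKM in OGD-VEH. CONTROL-TIA cultures lay between 5.75 and 12.1 FPKM and OGD-TIA cultures were at 7.22, 7.06, 8.89 and 39.3 FPKM. The groups overlapped, and the log2 fold change without TIA was 0.92 (95% confidence interval -0.95 to 2.80, padj = 0.448). A processed transcript of 375 bases, which is not protein-coding, gave 61.6% of the *Adam17* FPKM and ranged from 0 to 65.3 FPKM. The protein-coding isoforms of *Adam17* averaged 3.83 FPKM in CONTROL-VEH against 5.78 FPKM in OGD-VEH, and with these alone the log2 fold change was 0.59 (padj = 0.0553) without TIA and 0.32 (padj = 0.131) over both arms.

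**Figure D4:**
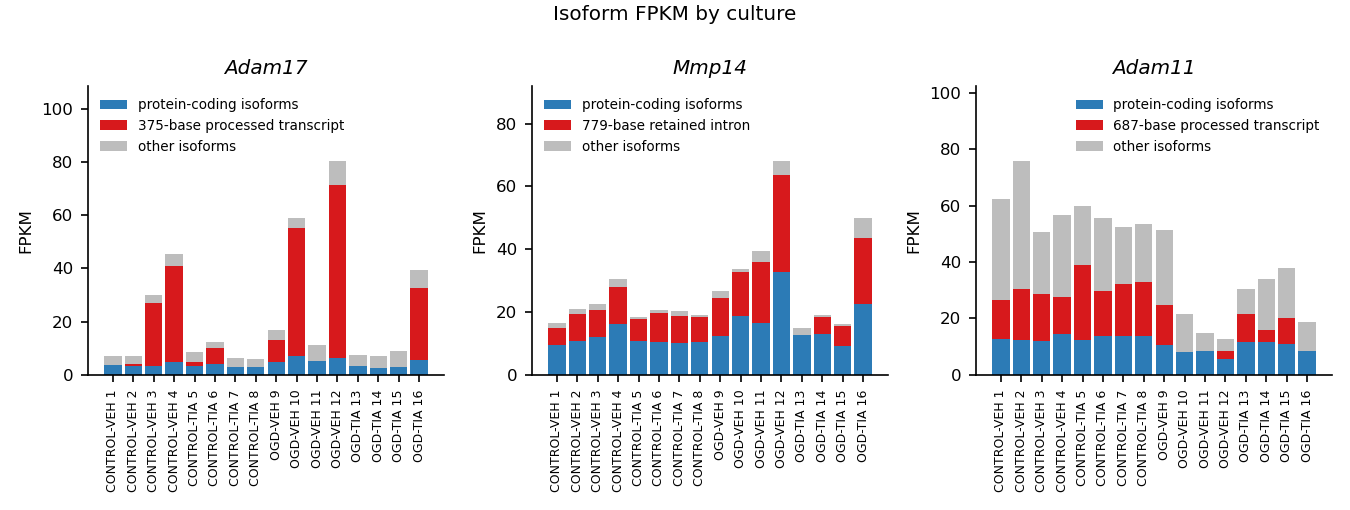
FPKM (y axis, linear, stacked from 0) of *Adam17*, *Mmp14* and *Adam11* in each of the 16 cultures (x axis), divided into protein-coding isoforms, 1 named short transcript and all other isoforms. The short *Adam17* transcript makes up most of the bar in the cultures with high *Adam17* and the protein-coding portion varies less.

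*Adam1a* and *Adam8* were the ADAMs whose OGD-VEH cultures all lay above CONTROL-VEH. *Adam8*, a surface protease best known from leukocytes, was at 3.31, 2.25, 2.82 and 3.84 FPKM in CONTROL-VEH and at 4.50, 6.72, 4.41 and 4.21 FPKM in OGD-VEH. CONTROL-TIA cultures lay between 2.525 and 3.57 FPKM and OGD-TIA cultures were at 9.77, 5.06, 2.84 and 4.31 FPKM, so these groups overlapped. *Adam8* missed the threshold without TIA (log2 fold change 0.68, SE 0.22, padj = 0.0752) and rose over both arms (0.75, SE 0.20, padj = 0.014). With its protein-coding isoforms alone, 26.8% of the total, *Adam8* rose by 1.28 (padj = 0.00363) over both arms. *Adam1a*, a fertilin subunit of sperm, was at 4.30, 3.58, 3.07 and 4.04 FPKM in CONTROL-VEH and at 4.40, 7.502, 7.83 and 5.83 FPKM in OGD-VEH. In OGD-TIA it lay between 5.99 and 6.499 FPKM, above the 4.21 to 4.61 FPKM of CONTROL-TIA. *Adam1a* rose over both arms (0.62, SE 0.11, padj = 0.00246), but its locus overlaps *Mapkapk5* on the same strand, so the assignment of its reads is uncertain.

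*Adam9* and *Adam19*, singled out after their values were seen, moved in opposite directions over both arms. *Adam9*, a widely expressed sheddase, was at 16.7, 17.2, 19.5 and 16.9 FPKM in CONTROL-VEH and at 18.0, 27.4, 26.9 and 34.7 FPKM in OGD-VEH (both arms 0.39, SE 0.13, padj = 0.0377). *Adam19*, which cleaves neuregulins, was at 11.9, 12.8, 12.3 and 11.2 FPKM in CONTROL-VEH and at 9.31, 10.0, 9.66 and 6.68 FPKM in OGD-VEH (both arms -0.32, SE 0.09, padj = 0.0156). *Adam19* is the measurable member with the AP-1 element printed above.

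Among the ADAMTSs, 3 of 17 tested fell and 0 rose without TIA, beside 3.45% and 4.99% of all genes (5 lower and 3 higher at an unadjusted p under 0.05, limma). Over both arms 5 of 16 fell and 4 rose, beside 13.4% and 18.7%. *Adamts3*, which encodes a procollagen N-proteinase that also cuts reelin, was at 13.8, 11.9, 10.9 and 14.3 FPKM in CONTROL-VEH and at 8.29, 6.34, 7.22 and 5.73 FPKM in OGD-VEH. It was at 17.2, 10.9, 11.3 and 14.2 FPKM in CONTROL-TIA and at 10.7, 9.92, 9.66 and 8.83 FPKM in OGD-TIA. OGD cultures lay below CONTROL cultures in both arms. The log2 fold change was -0.88 (SE 0.16, padj = 0.0336) without TIA, -0.43 (SE 0.16, padj = 0.204) with TIA and -0.66 (SE 0.12, padj = 0.00267) over both arms.

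The related *Adamts16*, *Adamts17* and *Adamts18* were also lower in all OGD-VEH than in all CONTROL-VEH cultures. *Adamts17* was at 3.44, 3.72, 3.67 and 4.99 FPKM in CONTROL-VEH and at 2.60, 1.59, 1.40 and 1.06 FPKM in OGD-VEH, a log2 fold change of -1.26 (SE 0.27, padj = 0.04). In CONTROL-TIA it lay between 3.24 and 4.39 FPKM and in OGD-TIA between 2.03 and 3.14 FPKM (-0.47, padj = 0.207). The *Adamts17* locus overlaps the processed pseudogene *Gm17909* on the same strand. *Adamts16* was at 1.40, 1.30, 1.17 and 1.67 FPKM in CONTROL-VEH and at 0.768, 0.689, 0.712 and 0.494 FPKM in OGD-VEH (-0.96, SE 0.24, padj = 0.0479). With TIA it averaged 1.51 ± 0.181 FPKM in CONTROL-TIA against 0.765 ± 0.103 FPKM in OGD-TIA (n = 4; -0.90, padj = 0.108). With protein-coding isoforms alone *Adamts16* missed the threshold over both arms (-0.61, padj = 0.0582).

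*Adamts18* was at 4.21, 4.51, 3.91 and 3.98 FPKM in CONTROL-VEH and at 2.85, 1.91, 1.85 and 0.697 FPKM in OGD-VEH. The groups did not overlap, but the p missed the threshold (-1.28, SE 0.36, padj = 0.0575), and *Adamts18* fell over both arms (-0.96, SE 0.22, padj = 0.00647). In CONTROL-TIA *Adamts18* lay between 4.06 and 5.06 FPKM, and in OGD-TIA it was at 2.78, 3.32, 3.52 and 2.065 FPKM. *Adamts15*, which cuts versican and aggrecan and was singled out after its values were seen, was at 3.66, 9.05, 3.47 and 3.16 FPKM in CONTROL-VEH and at 3.54, 1.33, 1.69 and 0.511 FPKM in OGD-VEH (both arms -1.11, SE 0.34, padj = 0.0233).

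*Adamts7* and *Adamts5* moved the other way. *Adamts7*, which cuts cartilage oligomeric matrix protein, was at 1.96, 1.86, 1.68 and 2.86 FPKM in CONTROL-VEH and at 2.33, 7.79, 6.09 and 6.74 FPKM in OGD-VEH. OGD-VEH 9 lay within the CONTROL range and the other 3 above it. In CONTROL-TIA *Adamts7* lay between 2.255 and 3.12 FPKM. OGD-TIA cultures were at 3.225, 3.00, 4.59 and 5.88 FPKM, so the groups with TIA overlapped. It missed the threshold without TIA (1.31, SE 0.37, padj = 0.0571) and with TIA (0.55, SE 0.23, padj = 0.241) and rose over both arms (0.93, SE 0.24, padj = 0.0113). *Adamts5*, the main aggrecanase of cartilage, was at 0.307, 0.374, 0.379 and 0.732 FPKM in CONTROL-VEH and at 0.424, 1.353, 1.36 and 1.91 FPKM in OGD-VEH (1.21, SE 0.46, padj = 0.104). In CONTROL-TIA it lay between 0.317 and 0.405 FPKM, and in OGD-TIA it was at 0.606, 0.608, 0.455 and 1.11 FPKM. *Adamts5* rose over both arms (0.98, SE 0.27, padj = 0.0149), where, like *Timp1*, it passed the 0.5 FPKM filter only through its OGD levels. Also higher over both arms were the proteoglycan-cleaving *Adamts1* (0.49, padj = 0.0279) and *Adamts9* (0.48, padj = 0.044).

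Several low members averaged 0.5 FPKM or more in some groups only and are given as values. *Adamts14* was at 0.070 to 0.219 FPKM in CONTROL-VEH and at 0.226, 0.860, 0.742 and 0.522 FPKM in OGD-VEH. *Adamtsl3* was at 0.112 to 0.172 FPKM and 0.289, 0.962, 0.452 and 0.584 FPKM in the same groups. *Mmp19* was at 0.101 to 0.184 FPKM and 0.367, 0.747, 0.515 and 0.848 FPKM. *Adamtsl5* was at 0.062 to 0.123 FPKM and 0.157, 0.400, 0.484 and 1.05 FPKM. *Adamts12* averaged 0.319 ± 0.0518 FPKM in CONTROL-VEH and was at 0.251, 0.736, 0.584 and 1.18 FPKM in OGD-VEH, and did not pass (0.77, SE 0.44, padj = 0.236). The other 4 were not tested. For each of these 5 genes OGD-VEH 9 was the lowest OGD-VEH culture.

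The measurable MMPs were mostly membrane-bound. *Mmp24*, which encodes the neuronal MT5-MMP, was the most abundant MMP at 46.4, 47.8, 53.5 and 49.4 FPKM in CONTROL-VEH. It was at 41.7, 28.5, 33.6 and 19.9 FPKM in OGD-VEH, all below CONTROL-VEH, with a log2 fold change of -0.72 (SE 0.21, padj = 0.06). With TIA, 3 OGD cultures lay between 44.6 and 46.6 FPKM and OGD-TIA 16 at 30.2 FPKM, against 46.2 to 49.4 FPKM in CONTROL-TIA. *Mmp24* fell over both arms (-0.48, SE 0.14, padj = 0.0195), as did *Mmp17*, which encodes the GPI-anchored MT4-MMP (-0.76, SE 0.24, padj = 0.029). *Mmp17* was at 18.2, 32.1, 30.6 and 19.5 FPKM in CONTROL-VEH and at 19.6, 7.82, 14.2 and 7.70 FPKM in OGD-VEH.

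*Mmp14*, which encodes MT1-MMP, the activator of pro-MMP2, was at 16.6, 20.97, 22.4 and 30.4 FPKM in CONTROL-VEH and at 26.5, 33.8, 39.5 and 68.1 FPKM in OGD-VEH. OGD-TIA cultures were at 14.8, 19.04, 16.1 and 49.9 FPKM and CONTROL-TIA cultures at 18.5 to 20.7 FPKM. The groups overlapped and *Mmp14* missed the threshold (without TIA 0.83, SE 0.30, padj = 0.0906; both arms 0.49, padj = 0.145). With protein-coding isoforms alone *Mmp14* passed over both arms (0.53, padj = 0.0476). *Mmp15* (39.1 and 35.8 FPKM in the vehicle groups) and *Mmp16* (21.7 and 18.2) encode further membrane types and did not pass (padj = 0.619 and 0.247 without TIA).

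The gelatinases, the MMPs most studied in stroke, were below the 0.5 FPKM limit and are given without a test. *Mmp9* was at 0.509, 0.444, 0.451 and 0.345 FPKM in CONTROL-VEH and at 0.679, 0.262, 0.328 and 0.313 FPKM in OGD-VEH, so the groups overlapped. In CONTROL-TIA it was at 0.506, 0.472, 0.424 and 0.818 FPKM, a mean of 0.555 FPKM and above the limit in that group alone. OGD-TIA cultures had 0.450, 0.363, 0.334 and 0.195 FPKM, and these groups also overlapped. *Mmp2*, named after its values were seen, averaged 0.438 ± 0.263 FPKM in CONTROL-VEH against 0.422 ± 0.140 FPKM in OGD-VEH (n = 4).

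**Figure D5:**
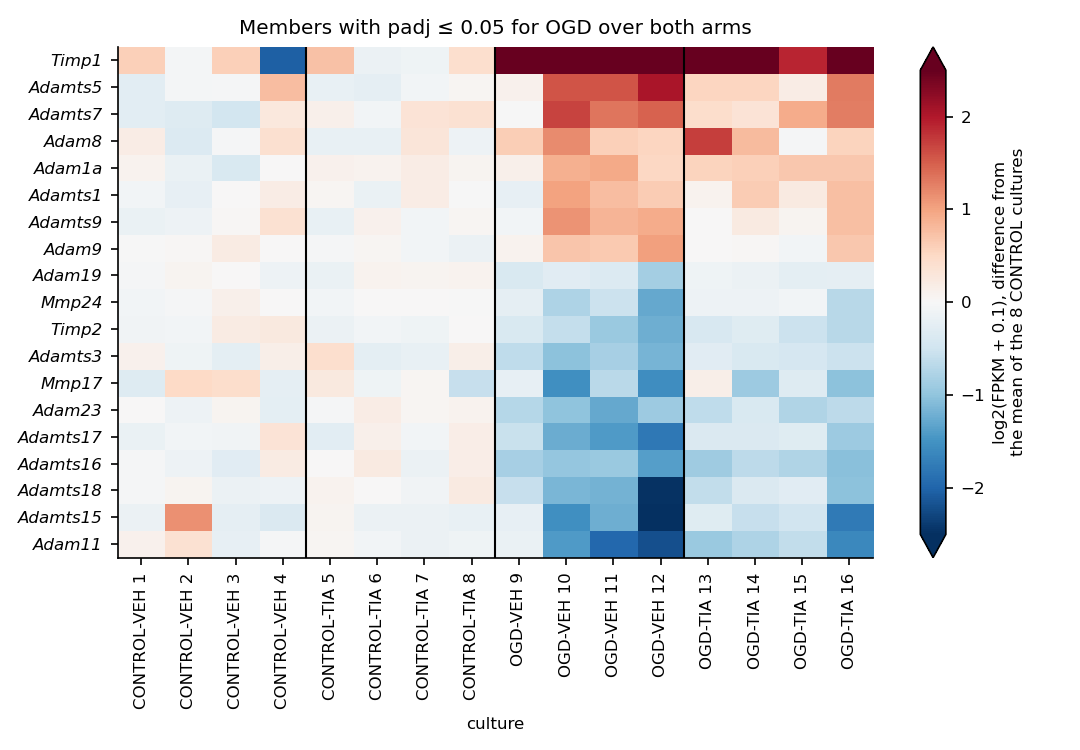
Difference of log2(FPKM + 0.1) from the mean of the 8 CONTROL cultures (colour, capped at the ends of the scale) for the 19 members called over both arms (y axis) in each of the 16 cultures (x axis). OGD-VEH 9 is paler than the other OGD-VEH cultures, and OGD-VEH 12 and OGD-TIA 16 are the darkest.

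The OGD cultures differed among themselves. OGD-VEH 9 was the nearest to CONTROL in its group for 17 of the 19 members called over both arms. OGD-VEH 12 was the farthest for 13 and OGD-TIA 16 for 15. The 19 members were called from these same cultures, and the same count over all genes called was not made. The order is therefore not a trait shown for the members in particular. The marker sums moved with this order: the neuron sum was 1831, 1412, 1319 and 1017 FPKM in OGD-VEH 9 to 12 and 1287 FPKM in OGD-TIA 16, against 1959 to 2070 FPKM in the other OGD-TIA cultures. The astrocyte sum was 664, 861, 847 and 1736 FPKM in OGD-VEH 9 to 12 and 1268 FPKM in OGD-TIA 16, and the part of cell composition in the member values was not tested.

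The effect of TIA was compared next. In CONTROL cultures, 0 of 38 members passed padj ≤ 0.05 by limma and 0 had an unadjusted p under 0.05, where 1.81% and 2.03% of all genes were higher and lower at that p. Of the members, *Adamts7* came nearest to the threshold (log2 fold change 0.39, padj = 0.999, limma). Between OGD-TIA and CONTROL-TIA 0 of 40 members passed, with 6 higher and 8 lower at an unadjusted p under 0.05, beside 11.6% and 7.92% of all genes. 0 of all 16242 genes passed in that comparison by limma. The study's DESeq2 test called DEGs there at the same thresholds, so the 0 belongs to this fit and does not show an absent OGD response.

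Between OGD-TIA and OGD-VEH 0 of 41 members and 0 of all 16351 genes passed by limma, with 3 higher and 2 lower at an unadjusted p under 0.05, beside 2.87% and 5.04% of all genes (7.91% in either direction). *Adamts3* had the smallest p, and all OGD-TIA cultures lay above all OGD-VEH cultures (log2 fold change 0.51, SE 0.14, padj = 0.551). *Timp1* differed by -1.21 (95% confidence interval -2.13 to -0.29, padj = 0.551), and its groups overlapped. Whether OGD acted differently under TIA was tested as an interaction, which called 0 of 40 members and 0 of all 16313 genes, with 1 higher and 1 lower at an unadjusted p under 0.05, beside 2.66% and 3.4% of all genes (6.06% in either direction). These were *Adamts17* (0.79, SE 0.33, padj = 0.722) and *Timp1* (-1.66, 95% confidence interval -3.26 to -0.06, padj = 0.722). By this fit a smaller OGD effect with TIA was therefore not established for any member or any other gene. With array quality weights the interaction gave 101 DEGs among all genes and 0 members at padj ≤ 0.05 by limma. The intervals do not show that the effects were equal.

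Genes that activate or restrain these proteases were taken from a list of 29. Of 22 tested without TIA, 4 rose and 2 fell at padj ≤ 0.05 by limma, beside 4.99% and 3.45% of all genes, and the median log2 fold change was -0.02 (0.10 over all genes). The plasminogen system gave *Plaur*, the urokinase receptor, which averaged 0.107 ± 0.112 FPKM in CONTROL-VEH against 1.49 ± 0.836 FPKM in OGD-VEH (log2 fold change 2.902, SE 0.55, padj = 0.0339). *Plaur* entered the test through its OGD-VEH level. *Plat*, the tissue plasminogen activator, was at 16.2 ± 2.40 and 32.1 ± 9.99 FPKM (0.94, SE 0.22, padj = 0.0437). The protease nexin *Serpine2* (0.76, padj = 0.0447) and the broad protease inhibitor *A2m* (1.42, padj = 0.0443) also rose. The testican proteoglycans *Spock2* (-1.03, padj = 0.0447) and *Spock3* (-1.53, padj = 0.0362) fell. Over both arms 8 of 22 rose and 5 fell, beside 18.7% and 13.4% of all genes.

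Substrates and binding partners formed a list of 34, of which 32 were tested. Without TIA 3 rose and 3 fell, beside 4.99% and 3.45% of all genes, with a median of 0.11 (0.10 over all genes). The hyaluronan receptor *Cd44* was at 2.73 ± 1.12 FPKM in CONTROL-VEH against 27.5 ± 13.02 FPKM in OGD-VEH (3.22, SE 0.50, padj = 0.0294). *Notch1* (2.88, padj = 0.0337) and the growth factor *Hbegf* (1.18, padj = 0.0336), both ADAM substrates, also rose. *App* fell from 436 ± 26.6 to 271 ± 61.2 FPKM (-0.71, SE 0.16, padj = 0.0415), and the adhesion gene *Nrcam* fell beside *Lgi1* (-0.55, padj = 0.0453). Over both arms 10 rose and 10 fell, beside 18.7% and 13.4% of all genes, with a median of 0.07 (0.08 over all genes). The cultures are described as biological replicates without saying whether they came from separate dissections, so the p-values measure the spread between these cultures only.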

How the data were processed

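RNA-seq of 16 PNCs (50-base single-end reads) had been processed by the authors with FastQC, STAR, eXpress and DESeq2 on GRCm38 with Ensembl 92. Tool versions were not given in the sources used here. The deposited values are FPKM per isoform, TMM-normalised by the authors, and the deposited table was used without the counts, so DESeq2 could not be applied. Of 135276 lines, 74 named no gene and were left out. Isoform FPKM were summed per symbol. Groups came from the labels. Genes averaging 0.5 FPKM or more in the cultures compared were tested on log2(FPKM + 0.1) with limma 3.58.1 (trend, R 4.3.3), adjusted by Benjamini-Hochberg over all genes tested; other values were computed in Python 3.11.15. DEGs had padj ≤ 0.05 and an absolute log2 fold change of at least 1. The code was tested on simulated data. Isoform types came from GENCODE M21, in which 99.89% of isoforms were found. Effective depth (19.7 to 26.0 M reads) was estimated from the lowest values of single-isoform genes and limits counting error only. Because these values are TMM-normalised, it need not equal the number of reads aligned.

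Values in each culture, or the range or mean of a group, were given for members at padj ≤ 0.05 in any comparison (at most the 12 with the smallest p), *Mmp3* and *Adamts7*, the 4 *Timp* genes, the 5 members highest in CONTROL-VEH, the 2 with the smallest p in each comparison, and members at 0.5 FPKM in only some groups. For some of these members only the vehicle groups were printed. Members named beyond this rule were chosen after their values were seen. The members and lists were chosen with earlier results of these data known. Alternatives were the pseudocount, the filter, the scaling, quality weights, robust estimation, isoform weighting, a fit of all cultures and leaving out each culture. The use of protein-coding isoforms alone was added after seeing the data.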

Additional observations from a re-analysis of the deposited data

Results flagged for a closer look

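In 6 of 68 groups of 4 cultures (17 members), 1 culture lay far from the other 3 by Dixon's criterion, which chance meets in about 1 in 20 groups. OGD-TIA 16 was such a culture for 3 members. *Timp3* was at 41.2 FPKM there and between 11.7 and 13.8 FPKM in the other OGD-TIA cultures. *Mmp24* was at 30.2 FPKM against 44.6 to 46.6 FPKM, and *Adamts17* at 2.03 FPKM against 3.00 to 3.14 FPKM. *Adam8* was at 6.72 FPKM in OGD-VEH 10 against 4.21 to 4.50 FPKM in the other OGD-VEH cultures, and at 3.57 FPKM in CONTROL-TIA 7 against 2.52 to 2.64 FPKM. *Adamts5* was at 0.732 FPKM in CONTROL-VEH 4 against 0.307 to 0.379 FPKM.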

How the results depend on the processing

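Of 69 fold changes recomputed, 5 changed sign in 15 fits, none at padj ≤ 0.05 (limma) and each from a value that had not passed. *Timp4* without TIA was -0.0189 with median-ratio scaling, -0.0059 with array quality weights and -0.35 to 0.30 with 1 culture left out. *Adam15* without TIA was -0.173 to 0.0594 and *Adam10* over both arms -0.0211 to 0.0111 with 1 culture left out. *Mmp15* without TIA was 0.20 with length weighting and 0.25 with protein-coding isoforms. *Adamts7* in CONTROL cultures was -0.0795 with protein-coding isoforms. Under the alternatives other than leaving out a culture, 583 values kept their direction and side of the threshold, 55 newly passed and 15 no longer passed. No paired analysis was possible because the cultures are numbered 1 to 16 across the groups and share no numbers. Gene counts below need both thresholds and member counts padj alone. In the main fit of OGD-VEH against CONTROL-VEH, 1380 of 16346 genes (8.44%) had padj ≤ 0.05 by limma. That share is not given for the alternatives, so no excess of members can be read from the counts. For OGD-VEH against CONTROL-VEH, 668 genes were DEGs and 6 members had padj ≤ 0.05. Without the filter on low values these counts were 36 and 0 (15 members higher and 13 lower at an unadjusted p under 0.05, limma), with array quality weights 1929 and 22, with isoforms weighted by length 1122 and 17, and with all 16 cultures in one fit 1412 and 17. Protein-coding isoforms alone, added after seeing the data, gave 10 members. For OGD-TIA against CONTROL-TIA, the 0 DEGs became 7 without the filter, 80 with weights, 73 with length weighting, and 1 with protein-coding isoforms or all cultures in one fit. Its 0 members became 4 with weights and 5 with length weighting. CONTROL-TIA against CONTROL-VEH gave 4 DEGs without the filter. OGD-TIA against OGD-VEH gave 4 DEGs without the filter and 408 with weights, where 7 members passed. The interaction gave 3, 101 and 1 DEGs without the filter, with weights and with protein-coding isoforms. Over both arms the 780 DEGs became 394 with a pseudocount of 1. Leaving out 1 culture gave 1 to 2186 DEGs and 0 to 20 members without TIA, 0 to 16 DEGs with TIA, 0 to 2 between the OGD groups, 0 to 1 for the interaction, and 526 to 1058 DEGs and 15 to 21 members over both arms. The cause was not tested.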
